A study of Mus musculus with 9 samples.

Results

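The chemokines and chemokine receptors of mouse bone were compared between old and young animals in bulk RNA sequencing data. Members were taken by gene symbol: Ccl, Cxcl, Cx3cl and Xcl ligands, Ccr, Cxcr, Cx3cr and Xcr receptors, and the atypical receptors Ackr1 to Ackr4 and Ccrl2. By this rule 64 of 56980 genes were members, and 2 further genes that matched the symbol pattern were not analysed here. The 64 were 38 ligands (24 CC, 12 CXC and 2 of the C or CX3C class), 3 pseudogenes of Ccl19, 18 signalling receptors and 5 atypical receptors. Of these, 42 passed the filter on low counts and were tested, 15 had too few counts and 7 had none.

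Chemokines are small secreted proteins that draw leukocytes along a concentration gradient by binding receptors coupled to G proteins of the inhibitory class. Atypical receptors bind the same ligands without coupling to G proteins and remove, hold or transport them. In bone marrow, chemokine signals retain and release neutrophils and monocytes and place lymphocytes and plasma cells in their niches.

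The study had 5 aged mice, 20 months old, and 4 young mice, 3 months old, all wild type C57BL/6 animals given no treatment. The series describes them as female. Each library is labelled as a separate biological replicate of bone marrow, but RNA came from homogenised trabecular bone, so bone and marrow cells were measured together. Markers of neutrophils, red cell precursors and bone or stroma were all present, and none of the 109 cell type marker genes examined was at 0 in any library. In such bulk samples, fewer cells of a type and less RNA per cell cannot be told apart.

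The estimated counts summed to 19804883 to 23548594 per library. Libraries aged 3, aged 4 and young 4 stood apart: ribosomal protein genes took 5.63 to 6.54% of their counts and 2.85 to 3.07% in the other 6. Aged 3 also had the fewest genes with a count, 17374 against 21583 to 23849 in the others, and 23 of 64 members were at 0 there against 8 to 17. In aged 5 and all young libraries, transcripts of the sex chromosomes went against the stated sex. Aged 1 to 4 had high Xist and 0 counts of Ddx3y, while aged 5 and all 4 young libraries had 888 to 1721 counts of Ddx3y and at most 9 of Xist. Age and these transcripts therefore cannot be told apart in aged 1 to 4, and the main age differences are also given for aged 5 alone. Levels below are in CPM, counts relative to the library total after TMM scaling, and log2 fold changes are aged over young.

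With age as the only term, chemokine genes leaned towards higher levels in aged bone. The 7 members with the smallest unadjusted p were, in order, Cxcl13, Ccl5, Cxcr6, Ccl8, Ccl3, Cxcl10 and Ccl4, and none passed the test. In edgeR's quasi-likelihood test with Benjamini-Hochberg adjustment, 0 of 42 members and 0 of 16576 genes (0%) had an adjusted p under 0.05, and the smallest adjusted p of any member was 0.266. At an unadjusted p under 0.05, 14 of 42 members were higher in aged mice, against 4.15% of all genes, and 2 were lower, against 4.64% of all genes. The median log2 fold change was 0.68 over the 42 members and 0.03 over all genes tested, and 29 of 42 members lay above 0, against 53.5% of all genes. With a filter of at least 1 CPM in 4 libraries, the median was 0.48 over 37 members and 0.03 over all genes tested. There, 24 of 37 members lay above 0. Either filter can be passed on aged libraries alone, which bears on this lean. With Y-linked expression as a term beside age, where the age difference rests on aged 5, the median was 0.039 and 22 of 42 members lay above 0, against 46.3% of all genes. DESeq2 called 7 members higher (Ccl3, Ccl4, Ccl5, Ccl8, Cxcl10, Cxcl13 and Cxcr6), against 1.16% of all genes, and 0 lower, while limma-voom called 0. In the authors' deposited table the same 7 members are marked as significantly up, among 163 such genes (0.53% of the 30495 genes with counts). The name of that comparison holds DESeq2 and it covers the same libraries, so it is no independent support for the DESeq2 calls here.

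By class, a larger share of the tested ligands than of the tested receptors lay above 0. Of 22 tested ligands and pseudogenes with ligand symbols, 19 lay above 0, and of 20 tested receptors, 10 did. All 7 tested CXC ligands had a positive log2 fold change (median 1.51), as did 9 of 12 CC ligands (median 0.83). Signalling receptors were split, with 3 of 7 CC receptors (median -0.14) and 4 of 6 CXC receptors (median 0.50) above 0, while both receptors of the C or CX3C class, Xcr1 and Cx3cr1, were above 0 (median 0.96). Atypical receptors ran the other way, with 4 of 5 below 0 and a median of -0.59. These counts and medians describe the members and were given no test of their own.

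**Figure D1:**
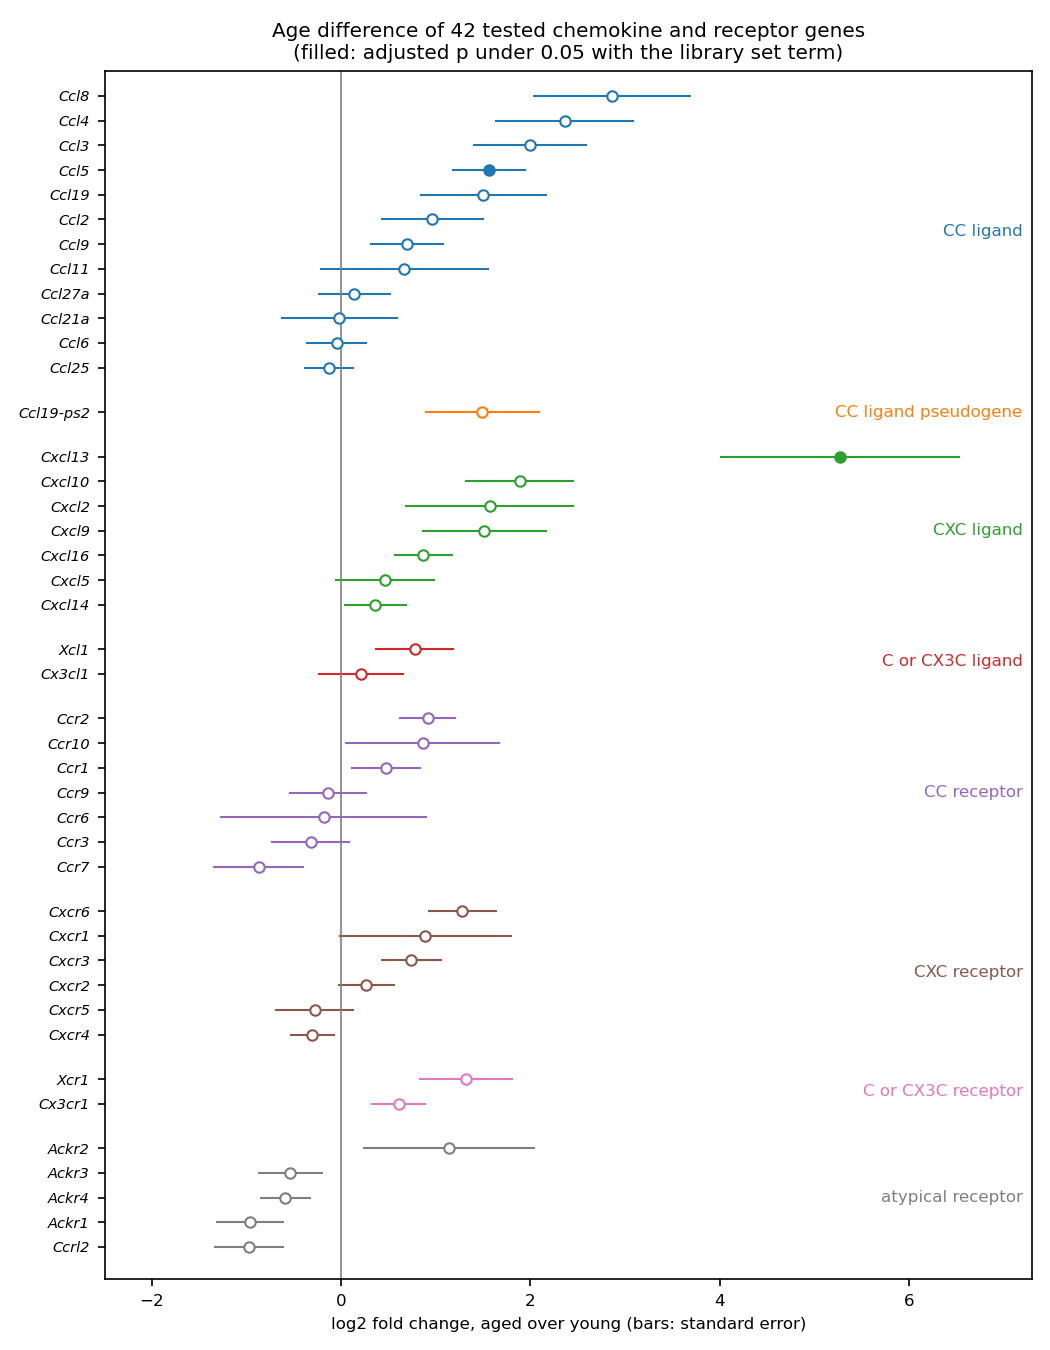
Log2 fold change, aged over young, of the 42 tested members by class, with bars of 1 standard error from edgeR with age as the only term. Filled points mark Ccl5 and Cxcl13, which had an adjusted p under 0.05 when the library set was a further term. CXC ligands lie right of 0 and 4 of 5 atypical receptors left of it.

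Because 3 libraries stood apart, the same test was run with a term for library set (aged 3, aged 4 and young 4 against the other 6). It called 319 of 16576 genes (1.92%), and Ccl5 and Cxcl13 passed, both higher in aged bone. That was 2 of 42 members, against 0.615% of all genes higher, and 0 members were lower, against 1.31% of all genes. With fewer libraries the calls did not hold. When aged 1, aged 2, aged 4 or any young library was left out, 0 members passed, against at most 0.0118% of all genes. In those fits calls fell over all genes and not only among members. Without aged 3, 10 members passed, where 9.91% of all genes did, and without aged 5, 7 passed, where 4.36% did. By limma-voom with the same term, 2 members passed, Ccl5 higher and Ackr1 lower, against 2.28% of all genes. With Y-linked expression as a further term, 0 members passed by edgeR, against 0.0302% of all genes. The age difference was also tested for a dependence on library set, and 0 of 42 members had an adjusted p under 0.05 by edgeR (smallest 0.925), against 0.0121% of all genes. At an unadjusted p under 0.05, 1 member did so in the edgeR fit, Cxcl14, against 5.21% of all genes.

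Ccl5 (RANTES), made by activated T cells and by platelets and macrophages, averaged higher in aged bone. It had 22.4, 38.4, 42.5, 38.4 and 15.1 CPM in aged 1 to 5, against 8.17, 9.43, 6.72 and 18.1 CPM in young 1 to 4. Young 4 was above aged 5, and the other aged libraries were above all young ones. Ccl5 averaged 31.4 ± 11.9 CPM in aged mice and 10.6 ± 5.13 CPM in young mice (SD, n = 5 and n = 4). The log2 fold change was 1.57 (SE 0.39, adjusted p = 0.281) by edgeR, and with the library set term Ccl5 rose by 1.49 (SE 0.26, adjusted p = 0.0405). Leaving out 1 library gave adjusted p-values from 0.0174 to 0.176 under that term, with a call without aged 3 and without aged 5. With Y-linked expression as a further term the log2 fold change was 0.78 (SE 0.35, adjusted p = 1.0). Set against the young libraries of its own set (aged 1 and 2 or aged 5 against young 1 to 3, and the set of 3 as aged 3 and 4 against young 4), the log2 difference was 1.86 for aged 1 and 2, 1.15 for the set of 3 and 0.91 for aged 5, so aged 5 stood above young 1 to 3 as well. In the deposited TPM, which are scaled per length and per library total, the groups of Ccl5 did not overlap, at 66.3 to 161 TPM in aged libraries and 27.1 to 38.8 TPM in young libraries.

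Ccl3 (MIP-1 alpha) and Ccl4 (MIP-1 beta) are macrophage inflammatory proteins, and Ccl3 is also known for stimulating osteoclast formation. Ccl3 had 12.04, 7.43, 6.93, 3.17 and 1.69 CPM in aged 1 to 5, against 1.03, 0.870, 1.55 and 2.85 CPM in young 1 to 4. Ccl4 had 12.4, 7.74, 1.96, 6.28 and 0.829 CPM in aged 1 to 5, against 0.875, 0.732, 1.01 and 1.97 CPM in young 1 to 4. In both genes aged 1 was highest, aged 5 lay within the young range and young 4 was the highest young library. The log2 fold change was 2.00 (SE 0.60, adjusted p = 0.342) for Ccl3 and 2.36 (SE 0.74, adjusted p = 0.355) for Ccl4 by edgeR, and with the library set term the adjusted p-values were 0.109 and 0.125. For aged 5 against young 1 to 3 the log2 difference was 0.56 for Ccl3 and -0.06 for Ccl4. With Y-linked expression as a term beside age, the log2 fold change of Ccl4 was -0.45.

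**Figure D2:**
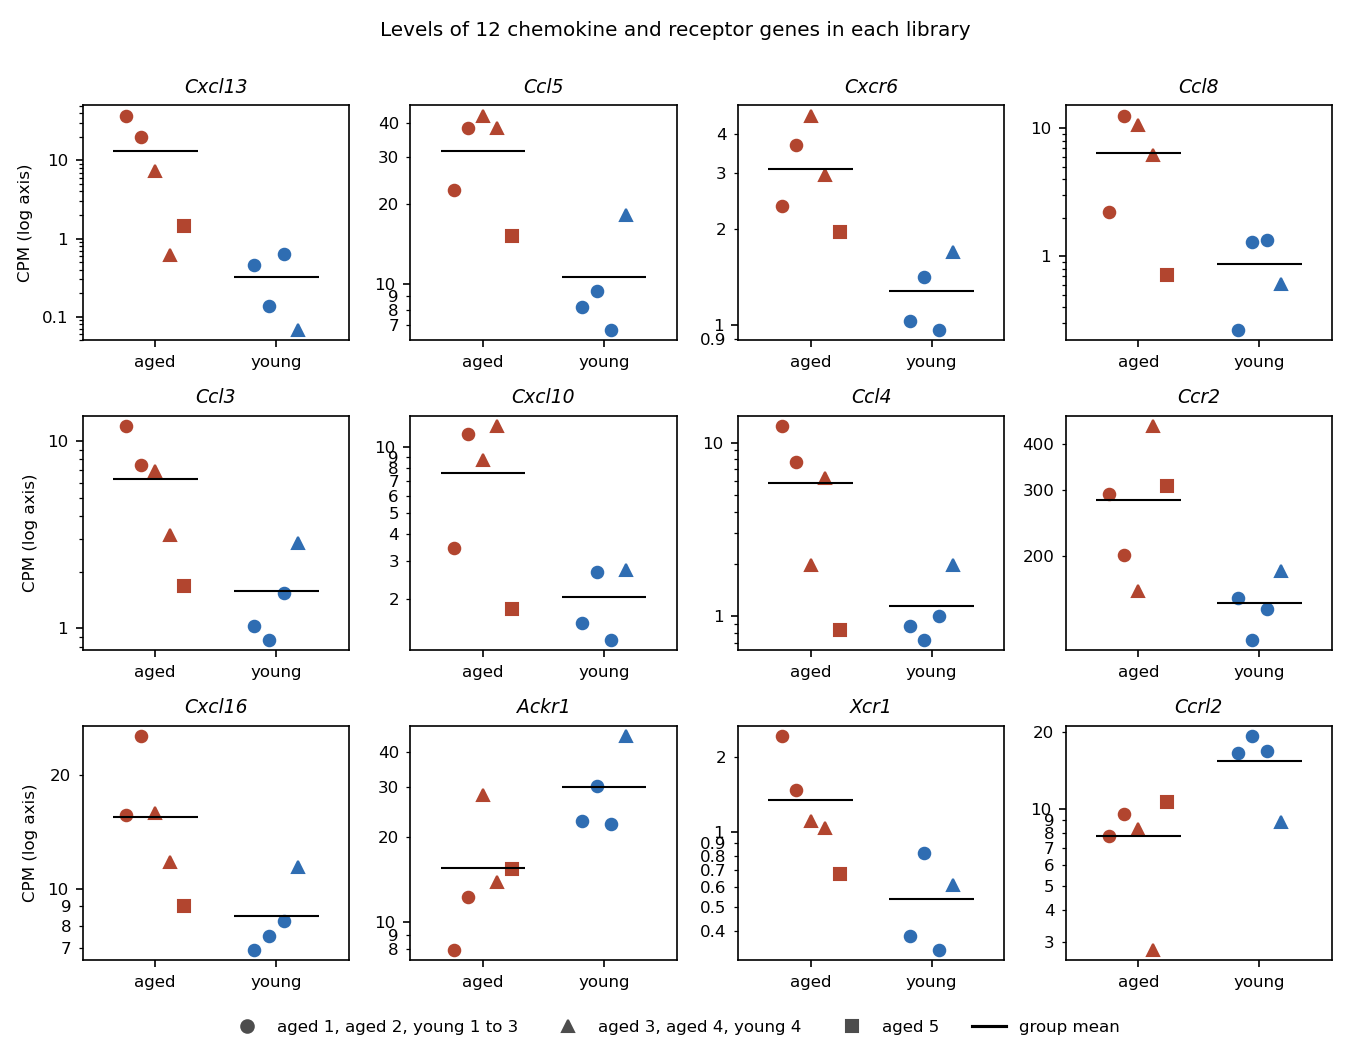
CPM (log axis) of 12 members in each aged library (left) and young library (right). Circles are aged 1, aged 2 and young 1 to 3, triangles are aged 3, aged 4 and young 4, the square is aged 5, and lines are group means. Cxcr6 has no overlap between ages, and aged 5 is the lowest or second lowest aged library in every panel except Ccr2, Ackr1 and Ccrl2.

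Ccr2, the receptor that lets inflammatory monocytes leave the marrow, had 294, 201, 161, 447 and 308 CPM in aged 1 to 5, against 154, 119, 144 and 182 CPM in young 1 to 4. Aged 4 was highest and aged 3 fell within the young range, so the groups overlapped. Its log2 fold change was 0.91 (SE 0.30, adjusted p = 0.388) by edgeR, and it was 1.15 for aged 5 against young 1 to 3, the largest of its subset differences. Ccr2's main ligand Ccl2 was low, at 0.452 to 2.03 CPM in aged libraries, against 0.275 to 1.09 CPM in young libraries, with a log2 fold change of 0.96 (SE 0.54, adjusted p = 0.736). Ccl7 and Ccl12, other ligands of Ccr2, had 45 and 65 counts in all 9 libraries and were not tested. Of the 31-base words of Ccr2 transcripts, 3.48% occur in other genes, and its estimated counts were not whole in 7 of 9 libraries.

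Ccl8 (MCP-2), in mice a ligand of Ccr8 made by macrophages, varied widely among aged libraries. It had 2.20, 12.5, 10.5, 6.23 and 0.716 CPM in aged 1 to 5, against 0.266, 1.28, 1.34 and 0.611 CPM in young 1 to 4. Aged 5 was within the young range and the other 4 aged libraries were above it. The log2 fold change was 2.86 (SE 0.84, adjusted p = 0.335) by edgeR, but -0.14 for aged 5 against young 1 to 3, and -0.29 with Y-linked expression as a term. All 23 counts of its receptor Ccr8 came from aged libraries, which held 0 to 12 each, and every young library had 0, where 0 allows up to 3 counts per library.

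The Cxcr3 axis links interferon gamma to T cell recruitment: Cxcl9 and Cxcl10 are induced by interferon, and Cxcr3 is carried by effector T cells and natural killer cells. Cxcl10 had 3.45, 11.5, 8.70, 12.5 and 1.81 CPM in aged 1 to 5, against 1.56, 2.65, 1.30 and 2.72 CPM in young 1 to 4. Aged 1 to 4 were above all young libraries and aged 5 was inside the young range, with a log2 fold change of 1.89 (SE 0.57, adjusted p = 0.342) by edgeR. For aged 5 against young 1 to 3 the log2 difference was 0.04, and with Y-linked expression as a term the log2 fold change was -0.18. Cxcl9 ranged over 3.47 to 43.2 CPM in aged libraries, against 3.19 to 7.37 CPM in young libraries, and its highest value was that of aged 2. Its log2 fold change was 1.51 (SE 0.66, adjusted p = 0.545), with -0.78 for aged 5 against young 1 to 3. Cxcr3 ranged over 4.40 to 8.63 CPM in aged libraries, against 2.10 to 4.71 CPM in young libraries, with a log2 fold change of 0.74 (SE 0.32, adjusted p = 0.547). The remaining ligand, Cxcl11, had 21 counts, 20 of them in aged libraries, and was not tested. Interferon gamma itself did not pass the filter on low counts, at 0 to 0.415 CPM in aged libraries and 0.0420 to 0.320 CPM in young libraries.

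Cxcl13, which draws B cells and follicular helper T cells through Cxcr5, had the largest log2 fold change of any member. Its levels were 36.8, 19.8, 7.36, 0.623 and 1.43 CPM in aged 1 to 5, against 0.456, 0.137, 0.630 and 0.0679 CPM in young 1 to 4. Aged 4 was just below young 3, the other aged libraries were above all young ones, and aged 1 and aged 2 held 854 and 445 of its 1500 counts. The log2 fold change was 5.27 (SE 1.27, adjusted p = 0.266) by edgeR, and with the library set term Cxcl13 rose by 5.55 (SE 1.14, adjusted p = 0.0466). Its adjusted p under that term was 0.0174 to 0.178 with 1 library left out, and again under 0.05 without aged 3 and without aged 5. By limma-voom with the library set term the log2 fold change was 4.62 (SE 2.36, adjusted p = 0.341), and with Y-linked expression as a further term in edgeR it was 1.76 (SE 1.08, adjusted p = 1.0). Subset log2 differences were 5.91 for aged 1 and 2, 3.85 for the set of 3 and 1.76 for aged 5. Cxcr5, its receptor on B cells, had 2.34 to 8.76 CPM in aged libraries, against 4.01 to 8.48 CPM in young libraries, and a log2 fold change of -0.28 (SE 0.42, adjusted p = 1.0). The summed level of 10 B cell markers was 80.6 to 571 CPM in aged libraries and 411 to 463 CPM in young libraries, and all 10 had log2 fold changes below 0. Their part in the values of Cxcr5 was not tested.

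The promoter windows of 5 ligands named above are shown because these genes had some of the largest age differences, and the windows were searched for words of known inflammatory regulators. Each runs from 250 bases before to 50 bases after the start site, 5′ to 3′ on the gene's strand, from RefSeq on GRCm38.p6. Capitals mark matches, on either strand, to 4 words. GAAANNGAAA is found in interferon-stimulated response elements and GGGANNTTCC in sites of the kappa B family. TGANTCA is the word of AP-1 factors. TATAAA is a core promoter element. No matches in the windows shown overlap each other. The windows are chr5:95956689-95956988 on the plus strand for Cxcl13, chr5:92348840-92349139 on the minus strand for Cxcl10, chr5:92328030-92328329 on the minus strand for Cxcl9, chr11:83649329-83649628 on the minus strand for Ccl3 and chr11:82114935-82115234 on the plus strand for Ccl8.
Cxcl13: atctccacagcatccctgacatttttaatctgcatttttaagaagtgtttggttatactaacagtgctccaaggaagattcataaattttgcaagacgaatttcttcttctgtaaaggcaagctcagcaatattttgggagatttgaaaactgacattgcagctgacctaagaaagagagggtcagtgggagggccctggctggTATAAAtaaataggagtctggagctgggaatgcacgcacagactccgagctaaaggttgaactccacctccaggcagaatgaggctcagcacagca
Cxcl10: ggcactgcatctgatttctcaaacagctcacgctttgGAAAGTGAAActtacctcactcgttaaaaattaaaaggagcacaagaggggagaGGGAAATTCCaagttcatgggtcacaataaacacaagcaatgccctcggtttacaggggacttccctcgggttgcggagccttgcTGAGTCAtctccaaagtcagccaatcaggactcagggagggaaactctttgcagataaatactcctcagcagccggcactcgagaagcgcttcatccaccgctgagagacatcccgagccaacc
Cxcl9: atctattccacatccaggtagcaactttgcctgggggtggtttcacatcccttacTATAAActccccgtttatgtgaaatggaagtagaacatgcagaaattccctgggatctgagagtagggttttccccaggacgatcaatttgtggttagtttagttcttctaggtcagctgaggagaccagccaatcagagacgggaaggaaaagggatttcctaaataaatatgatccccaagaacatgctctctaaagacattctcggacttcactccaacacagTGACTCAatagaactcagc
Ccl3: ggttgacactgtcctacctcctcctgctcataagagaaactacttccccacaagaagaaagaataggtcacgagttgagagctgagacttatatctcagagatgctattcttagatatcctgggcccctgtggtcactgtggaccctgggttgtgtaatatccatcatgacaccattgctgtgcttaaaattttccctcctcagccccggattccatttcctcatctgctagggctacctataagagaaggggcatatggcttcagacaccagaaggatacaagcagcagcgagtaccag
Ccl8: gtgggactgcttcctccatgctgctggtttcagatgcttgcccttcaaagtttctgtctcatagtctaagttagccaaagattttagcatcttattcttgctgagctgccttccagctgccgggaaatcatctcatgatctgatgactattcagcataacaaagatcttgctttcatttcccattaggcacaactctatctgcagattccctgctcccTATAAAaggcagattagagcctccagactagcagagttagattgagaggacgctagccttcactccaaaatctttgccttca

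Cxcl10 held the first 3 of these words, at -213, -159 and -74 counted from the start site. Cxcl13 and Ccl8 held TATAAA at -46 and -32, Cxcl9 held it at -195 and TGACTCA at 32, and Ccl3 held none of the words. Among 47 members with a window in RefSeq, TATAAA was in 15 (31.9%), against 15.7% of 27025 genes. TGANTCA was in 9 members (19.1%), against 8.97% of genes. GGGANNTTCC was in 6 members (12.8%), against 1.63% of genes, and GAAANNGAAA in 3 (6.38%), against 3.99%. The 6 with GGGANNTTCC were Ccl1, Ccr3, Cxcl1, Cxcl2, Cxcl3 and Cxcl10, of which Ccr3, Cxcl2 and Cxcl10 were tested, and their log2 fold changes were -0.32, 1.57 and 1.89. A match is a description of the letters and not a site shown to be bound.

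Cxcr6, a receptor of resident and memory T cells and natural killer T cells, and its only known ligand Cxcl16 both averaged higher in aged bone. Cxcr6 had 2.37, 3.69, 4.54, 2.96 and 1.96 CPM in aged 1 to 5, against 1.03, 1.42, 0.966 and 1.70 CPM in young 1 to 4. All aged libraries exceeded all young ones, on 52 to 83 counts in aged libraries and 23 to 31 in young libraries. It was the 1 tested member whose CPM did not overlap with aged higher, against 1.67% of all genes, and 0 did so with aged lower, against 2.76%. Its log2 fold change was 1.28 (SE 0.37, adjusted p = 0.321) by edgeR, its adjusted p was 0.0750 with the library set term, and it was 0.76 for aged 5 against young 1 to 3. Cxcl16 had 15.7, 25.3, 15.9, 11.8 and 9.002 CPM in aged 1 to 5, against 6.92, 7.51, 8.23 and 11.4 CPM in young 1 to 4. Young 4 exceeded aged 5, and the log2 fold change was 0.87 (SE 0.31, adjusted p = 0.428). Exons of Cxcl16 overlap those of Zmynd15 on the opposite strand, which holds 18.5% of its 31-base words, and the strandedness of the counting is not given in the sources used here. Exons of Cxcl10, Xcl1, Cx3cr1, Cxcr5, Ccl25, Ccl27a, Ccr9 and Ackr4 also overlap genes on the opposite strand. Reads of the overlapping stretches cannot be told apart without strand. For Cxcl10, 4.47% of its 31-base words occur in Art3, the gene it overlaps.

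Xcr1, the receptor of conventional type 1 dendritic cells, was the lowest tested member per length (0.257 TPM on average). It had 2.42, 1.47, 1.10, 1.04 and 0.678 CPM in aged 1 to 5, against 0.380, 0.824, 0.336 and 0.611 CPM in young 1 to 4, with 18.1 to 56.3 estimated counts in aged libraries and 7.88 to 18.0 in young libraries. Only aged 5 fell inside the young range, and the log2 fold change was 1.32 (SE 0.50, adjusted p = 0.466) by edgeR. Xcl1, its ligand, ranged over 1.13 to 3.31 CPM in aged libraries, against 0.798 to 1.90 CPM in young libraries, with a log2 fold change of 0.78 (SE 0.42, adjusted p = 0.699). Cx3cr1, the receptor of patrolling monocytes, ranged over 23.2 to 62.5 CPM in aged libraries, against 26.5 to 28.9 CPM in young libraries. Its log2 fold change was 0.61 (SE 0.29, adjusted p = 0.616), and that of its ligand Cx3cl1 was 0.21 (SE 0.45, adjusted p = 1.0).

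Ccl19 and its receptor Ccr7, which place lymphocytes in lymphoid tissue, had log2 fold changes of opposite sign, and neither passed. Ccl19, which guides T cells and dendritic cells through Ccr7, ranged over 1.39 to 9.81 CPM in aged libraries, against 0.732 to 3.80 CPM in young libraries, with a log2 fold change of 1.50 (SE 0.67, adjusted p = 0.567). Ccr7 ranged over 1.04 to 8.09 CPM in aged libraries, against 6.32 to 9.30 CPM in young libraries, with a log2 fold change of -0.87 (SE 0.48, adjusted p = 0.716). Ccl19 is uncertain, since 58.8% of its 31-base words occur in near-identical copies. The pseudogene Ccl19-ps2 had 1.13 to 5.14 CPM in aged libraries, against 0.366 to 2.17 CPM in young libraries. Its log2 fold change was 1.49 (SE 0.61, adjusted p = 0.505) by edgeR. Estimated counts of both genes were not whole in 9 of 9 libraries, so reads may have been split between them. Both are among the 14 members higher at an unadjusted p under 0.05 by edgeR, and whether they differ separately was not tested. Ccl21a, the other Ccr7 ligand, had a log2 fold change of -0.02 and is uncertain too, with 80.6% of its words shared. The gut and skin homing members were low and did not pass: Ccl25 at -0.13, Ccr9 at -0.14, Ccr6 at -0.18, Ccl27a at 0.14 and Ccr10 at 0.86 on the log2 scale. All 5 had an adjusted p of at least 0.971. Ccl27a shares 57.0% of its words and Ccr9 21.7% with other genes.

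The receptors Cxcr2 and Cxcr4, both known from neutrophils, were abundant, and their groups overlapped. Cxcr2, which drives neutrophil release, had 207, 132, 128, 316 and 272 CPM in aged 1 to 5, against 167, 159, 217 and 159 CPM in young 1 to 4. The young range lay within the aged range, with a log2 fold change of 0.27 (SE 0.30, adjusted p = 0.997). Cxcr1 ranged over 0 to 4.48 CPM in aged libraries, against 0.951 to 1.89 CPM in young libraries. The ligands Cxcl2 and Cxcl5 had log2 fold changes of 1.57 (SE 0.89, adjusted p = 0.737) and 0.46 (SE 0.52, adjusted p = 0.999) by edgeR. Cxcl1 (38 counts) and Cxcl3 (14 counts) were not tested. Cxcr4, which retains neutrophils and stem cells in the marrow, had 158, 173, 207, 301 and 209 CPM in aged 1 to 5, against 225, 227, 249 and 336 CPM in young 1 to 4. Its log2 fold change was -0.31 (SE 0.24, adjusted p = 0.909), below 0 in each subset at -0.50 for aged 1 and 2, -0.43 for the set of 3 and -0.16 for aged 5. Summed neutrophil markers were 17144 to 77214 CPM in aged libraries and 24785 to 56701 CPM in young libraries.

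Ccl6 and Ccl9, rodent chemokines of myeloid cells that bind Ccr1, were with Ccl5 the most abundant of the member ligands per length. Ccl6 had 169, 137, 288, 289.7 and 226 CPM in aged 1 to 5, against 155, 199.9, 192 and 370.5 CPM in young 1 to 4. Its ranges overlapped almost wholly, with a log2 fold change of -0.05 (SE 0.32, adjusted p = 1.0) whose sign turned with the scaling and with the libraries kept. Ccl9, also made by osteoclasts, had 110.0, 58.8, 65.8, 179 and 90.7 CPM in aged 1 to 5, against 46.8, 45.4, 49.5 and 108 CPM in young 1 to 4. Young 4 was at the level of aged 1, and the log2 fold change was 0.69 (SE 0.39, adjusted p = 0.736). Ccr1, their receptor on monocytes, neutrophils and osteoclast precursors, ranged over 55.1 to 198 CPM in aged libraries, against 60.6 to 99.5 CPM in young libraries, with a log2 fold change of 0.48 (SE 0.37, adjusted p = 0.909). Cxcl14, a homeostatic chemokine, ranged over 36.8 to 74.8 CPM in aged libraries, against 30.2 to 76.3 CPM in young libraries. Its log2 difference was 1.06 for aged 1 and 2 and -0.54 in the set of 3 libraries, where young 4 held the highest value. Ccr3, the eosinophil receptor, and its ligand Ccl11 had log2 fold changes of -0.32 (SE 0.42, adjusted p = 1.0) and 0.67 (SE 0.89, adjusted p = 1.0).

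All atypical receptors except Ackr2 averaged lower in aged bone. Ackr1 (the Duffy antigen receptor, on venular endothelium and erythroid precursors) had 7.98, 12.3, 28.1, 13.9 and 15.4 CPM in aged 1 to 5, against 22.9, 30.3, 22.2 and 45.6 CPM in young 1 to 4. Aged 3 lay within the young range, and the other 4 aged libraries were below all young ones. The means were 15.5 ± 7.57 CPM in aged mice and 30.2 ± 10.9 CPM in young mice (SD, n = 5 and n = 4), with a log2 fold change of -0.96 (SE 0.36, adjusted p = 0.464) by edgeR and -1.09 (SE 0.24, adjusted p = 0.0580) with the library set term. Subset log2 differences were -1.32 for aged 1 and 2, -1.20 for the set of 3 and -0.69 for aged 5. In TPM, aged libraries had 11.1 to 20.9 and young libraries 24.8 to 37.4, with no overlap, unlike in CPM. Exons of Ackr1 overlap Cadm3 on the same strand, which shares 23.0% of its words. The summed level of 8 erythroid markers was 4279 to 130183 CPM in aged libraries and 39630 to 208012 CPM in young libraries, with log2 fold changes below 0 for all 8. Most of that sum came from the globin genes Hba-a1 and Hbb-bs, at 104997 and 97152 CPM in young 4 and 73616 and 52585 CPM in aged 3. The 8 endothelial markers summed to 174 to 363 CPM in aged libraries and 222 to 267 CPM in young libraries. The part of these erythroid and endothelial markers in the result was not tested.

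Ccrl2, which presents chemerin to neighbouring cells and is expressed by neutrophils, had 7.85, 9.52, 8.34, 2.80 and 10.7 CPM in aged 1 to 5, against 16.5, 19.2, 16.8 and 8.89 CPM in young 1 to 4. Aged 4 was the lowest, and young 4 lay within the aged range below young 1 to 3. Its log2 fold change was -0.97 (SE 0.37, adjusted p = 0.466), and the differences were -1.01 for aged 1 and 2, -0.86 for the set of 3 and -0.71 for aged 5. Ackr4, a scavenger of Ccl19, Ccl21 and Ccl25, ranged over 6.02 to 14.6 CPM in aged libraries, against 14.2 to 18.9 CPM in young libraries, with a log2 fold change of -0.59 (SE 0.27, adjusted p = 0.572), and Ackr3, carried by stromal cells, ranged over 4.01 to 11.5 CPM in aged libraries, against 6.68 to 10.4 CPM in young libraries, with -0.54 (SE 0.34, adjusted p = 0.814). Ackr2, the scavenger of inflammatory CC ligands, was the exception at 1.14 (SE 0.91, adjusted p = 0.920), on levels of 0 to 2.55 CPM in aged libraries, against 0.136 to 0.732 CPM in young libraries. The summed level of 10 stroma and bone markers was 478 to 2789 CPM in aged libraries and 2665 to 6961 CPM in young libraries. Its part in the values of Ackr3 and Ackr4 was not tested.

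**Figure D3:**
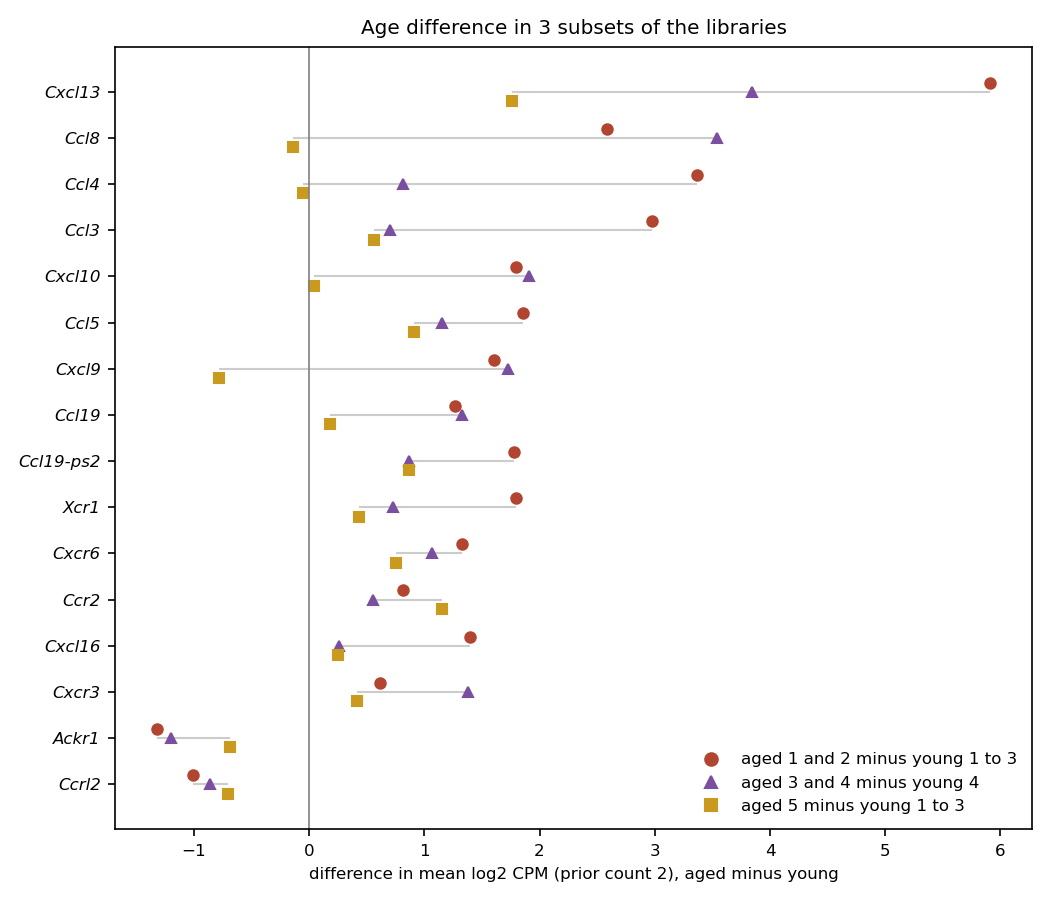
Difference in mean log2 CPM (prior count 2), aged minus young, for the 16 members with an unadjusted p under 0.05. Circles compare aged 1 and 2 with young 1 to 3, triangles aged 3 and 4 with young 4, and squares aged 5 with young 1 to 3. Squares lie closest to 0 for most members, while Ackr1 and Ccrl2 lie below 0 in all 3 subsets.

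The 14 members that were higher at an unadjusted p under 0.05 had their largest differences in aged 1 to 4, except Ccr2, whose largest was in aged 5. All 14 lay above 0 for aged 1 and 2 against young 1 to 3 (median 1.79) and for aged 3 and 4 against young 4 (median 1.11). For aged 5 against young 1 to 3, 11 of 14 did, with a median of 0.42, and Ccl4, Ccl8 and Cxcl9 lay below 0. These 14 were chosen on a comparison that aged 1 to 4 mostly make up. Over all 42 tested members, 26 lay above 0 for aged 1 and 2, against 50.5% of all genes, 30 for the set of 3, against 44.7%, and 25 for aged 5, against 50.9%. The comparisons with young 1 to 3 share those libraries, and aged 5 is a single library, so these differences have no test. Past a log2 difference of 1, aged 5 had 5 of 42 members higher, against 2.46% of all genes, and 0 lower, against 2.89%. The 5 were Cxcl13, Cxcr1, Ccr10, Cxcl2 and Ccr2, and of these only Cxcl13 and Ccr2 are among the 14. Cxcr1, Ccr10 and Cxcl2 were low, at no more than 1.89 CPM in any young library. In the set of 3 libraries, 9 of 42 were higher, against 5.39% of all genes, and 1 was lower, against 9.59%.

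Marker genes of the cells known to carry or make these members were also measured. The summed level of 10 monocyte markers was 1960 to 3626 CPM in aged libraries and 1256 to 1434 CPM in young libraries, with 9 of 10 log2 fold changes above 0. It was the only one of these 5 summed levels whose groups did not overlap. For 11 T and NK cell markers it was 117 to 227 CPM in aged libraries and 89.7 to 157 CPM in young libraries, with 9 of 11 above 0. Resident macrophage markers ran from 747 to 2173 CPM in aged libraries and from 751 to 1201 CPM in young libraries, with 6 of 10 above 0. Dendritic cell markers, a list that holds Xcr1, ran from 106 to 307 CPM in aged libraries and from 99.9 to 128 CPM in young libraries, with 4 of 8 above 0, and Itgax alone had 239 and 155 CPM in aged 1 and 2. Plasma cell markers were at 465 to 1611 CPM in aged libraries and 371 to 702 CPM in young libraries, with 8 of 8 above 0. The part of these cells in the levels of Ccr2, Ccl3, Ccl4, Ccl5, Cxcr3, Cxcr6 and Xcr1 was not tested.

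**Figure D4:**
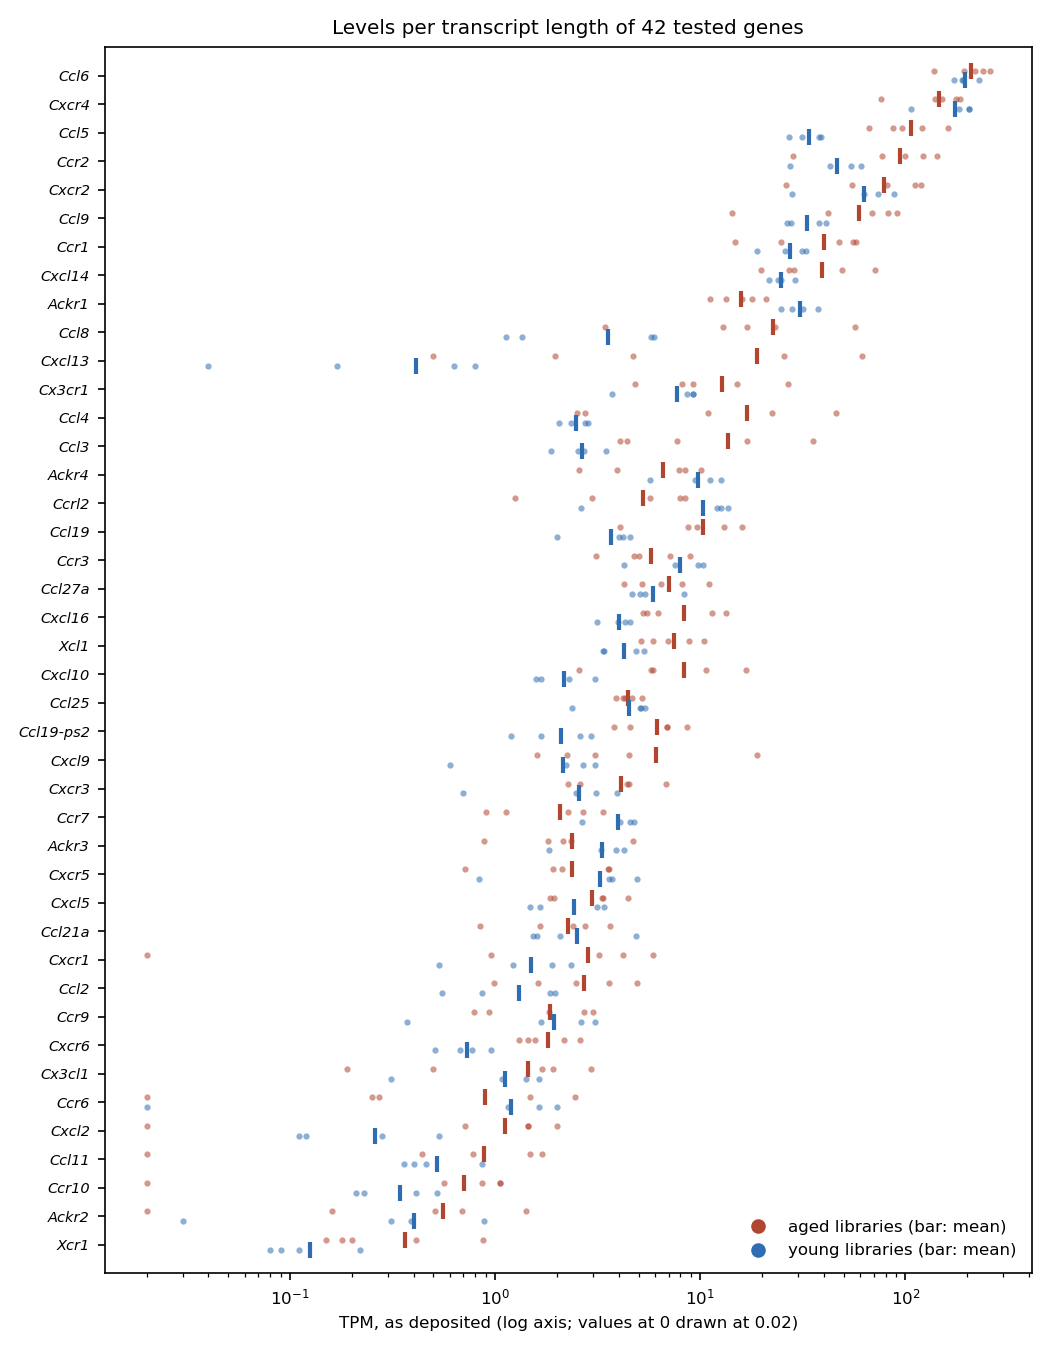
TPM as deposited (log axis) of the 42 tested members in each library, ordered by their mean over all libraries, with aged libraries in red and young libraries in blue and a bar at each group mean. Values at 0 are drawn at 0.02. Ccl6, Cxcr4, Ccl5, Ccr2, Cxcr2 and Ccl9 are the highest, and Xcr1 is the lowest.

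Per length and per library total, Ccl6 was the highest member, at 209 ± 46.4 TPM in aged mice and 196 ± 24.1 TPM in young mice (SD, n = 5 and n = 4). Cxcr4 followed at 146 ± 43.03 TPM in aged mice and 174 ± 46.1 TPM in young mice, a difference within their spread. Ccl5 came next at 106 ± 36.5 TPM in aged mice and 33.7 ± 5.56 TPM in young mice, then Ccr2 at 93.8 ± 44.0 TPM in aged mice and 46.4 ± 14.7 TPM in young mice. Averaged over all 9 libraries, neighbours from Ccl5 to Cxcr2 were close, at 74.0 TPM for Ccl5, 72.7 for Ccr2 and 71.6 for Cxcr2. In TPM, 5 tested members had every aged library above every young one (Ccl5, Cxcr6, Ccl3, Cxcl16 and Ccl19-ps2), against 1.53% of all genes, and 1, Ackr1, had every aged library below, against 0.959%. Of these, Ccl19-ps2 may share reads with Ccl19.

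Many members sit side by side in the genome, in RefSeq's gene order. On chromosome 11, Ccl5, Ccl9, Ccl6, Ccl3 and Ccl4 follow each other, with log2 fold changes of 1.57, 0.69, -0.05, 2.00 and 2.36, so the most abundant of the 5 lies between genes that averaged higher. In a further run on that chromosome, of Ccl2, Ccl7, Ccl11, Ccl12, Ccl8 and Ccl1, 3 genes were tested, and Ccl8 (2.86) stood above Ccl2 (0.96) and Ccl11 (0.67). On chromosome 9, Cxcr6, Xcr1, Ccr1, Ccr1l1, Ccr3 and Ccr2 form a run of 6, in which Xcr1 at 1.32 and Cxcr6 at 1.28 were the highest and Ccr3, at -0.32, was the only tested gene below 0.

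**Figure D5:**
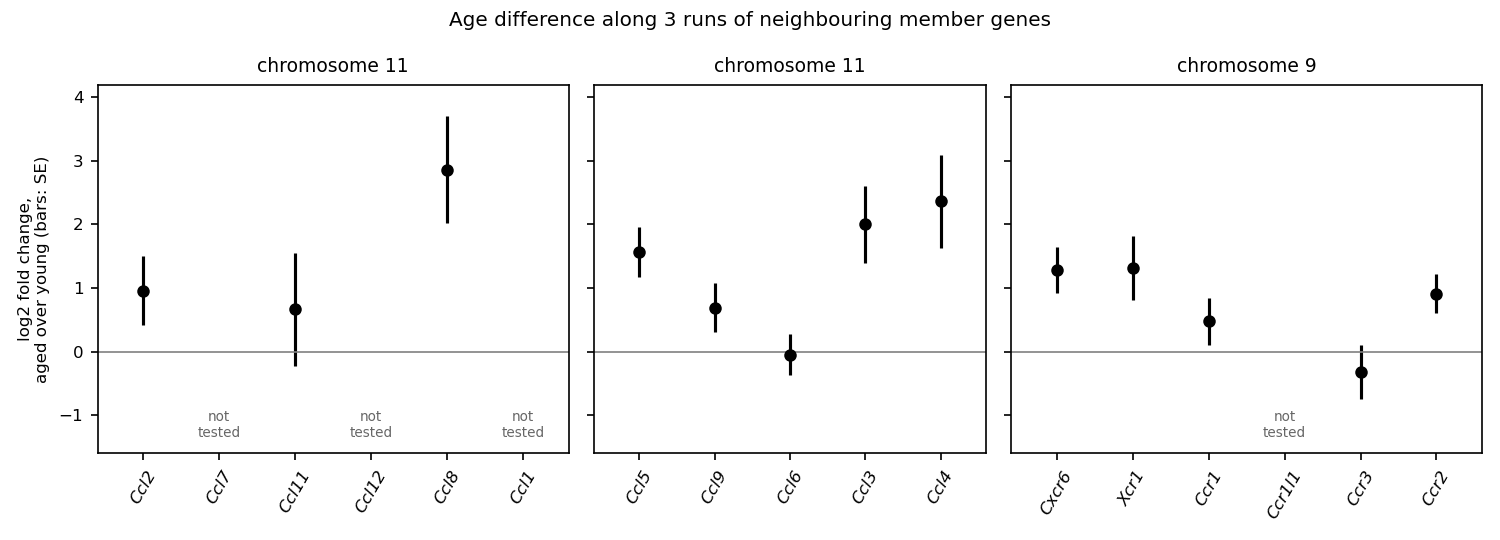
Log2 fold change, aged over young, with bars of 1 standard error, along 3 runs of neighbouring members in RefSeq's gene order. Genes in a run differ: Ccl6 lies at -0.05 between Ccl9 and Ccl3, and Ccr3 at -0.32 between Ccr1 and Ccr2.

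Members that were not tested had low counts, at most 88 over all libraries. The highest level of any of them in a single library was 2.64 CPM, for Ccl24. Beside those named above, Ccl22 had 88 counts over all libraries, Ccl24 had 86, of which 43 were in aged 3, Ccr1l1 had 78, Ccr4 had 62 and Ccl21b had 53.2. Ccr4, a receptor of type 2 helper and regulatory T cells, had 1 to 19 counts per aged library and 0 to 6 per young library. Ccl28 had 29 counts, Ccl21d 11.3, Ccl17 7 and Cxcl15 1. No count was listed in any library for Ccl1, Ccl20, Ccl26, Ccl27b, Cxcl17, Ccl19-ps1 and Ccl19-ps3, where 0 allows up to 3 counts per library.

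Beside the members, 55 of 56 listed genes of chemokine signalling and its surroundings were tested. G protein subunits, receptor kinases and arrestins, RGS proteins and migration effectors act at or downstream of the receptors. The lists also held other chemoattractant receptors, inducers of chemokines and the platelet chemokines Pf4 and Ppbp. By edgeR 0 of the 55 passed, 5 were higher and 1 lower at an unadjusted p under 0.05, against 4.15% and 4.64% of all genes, DESeq2 called 2, against 2.17% of all genes, and limma-voom 0. The median log2 fold change was 0.19, with 45 above 0, against 53.5% of all genes, and 10 below. Rgs1, which ends G protein signalling after chemokine receptors, had 23.9, 17.7, 10.6, 9.14 and 3.92 CPM in aged 1 to 5, against 2.89, 2.93, 2.52 and 1.83 CPM in young 1 to 4. Every aged library exceeded every young one, with a log2 fold change of 2.35 (SE 0.48, adjusted p = 0.255), and with the library set term Rgs1 rose by 2.44 (SE 0.45, adjusted p = 0.0405), the only call among the 55, against 1.92% of all genes. With 1 library left out, Rgs1 had an adjusted p of 0.000875 to 0.177 under that term and was called without aged 3 and without aged 5. By limma-voom with that term the log2 fold change of Rgs1 was 2.10 (SE 0.70, adjusted p = 0.139), and with Y-linked expression as a further term in edgeR it was 0.43 (SE 0.30, adjusted p = 1.0). Rgs16, of the same family, had 1.34, 3.78, 1.35, 2.08 and 1.66 CPM in aged 1 to 5, against 0.798, 0.641, 0.462 and 0.407 CPM in young 1 to 4, with no overlap and a log2 fold change of 1.80 (SE 0.46, adjusted p = 0.289).

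Lyn, a kinase that acts in migrating myeloid cells, had a log2 fold change of 0.56 (SE 0.24, adjusted p = 0.544). Vav1, a Rac activator, averaged 163 CPM in aged mice and 116 CPM in young mice, and Tnf, an inducer of many chemokines, 9.24 CPM in aged mice and 5.69 CPM in young mice. The groups of Vav1 and Tnf did not overlap, and their adjusted p-values by edgeR were 0.483 and 0.385. Arrb1, an arrestin that uncouples receptors, was the gene at the low side, with 221, 261, 178, 103 and 329 CPM in aged 1 to 5, against 441, 449, 427 and 275 CPM in young 1 to 4 and a log2 fold change of -0.87 (SE 0.32, adjusted p = 0.453). Pf4 and Ppbp, chemokines of platelets, had log2 fold changes of 0.61 (SE 0.66, adjusted p = 0.991) and 0.06 (SE 0.36, adjusted p = 1.0).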

How the data were processed

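Libraries of 5 aged and 4 young mice were grouped by their labels. The authors' deposited table holds estimated counts per gene and library and TPM, per the file headers, with the gene length, the authors' fold change, its log2, and p-values of a comparison whose name holds DESeq2. Bowtie 0.12.2 and mm8 are listed in the submitters' processing notes with no role, and the quantifier and annotation are not given in the sources used here.

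Estimated counts were rounded to whole numbers, filtered with filterByExpr (minimum count 10, minimum total 15) and scaled by TMM. Aged was compared with young by edgeR 4.0.16 quasi-likelihood tests in R 4.3.3 on all 16576 genes that passed, with Benjamini-Hochberg adjustment at 0.05. Age was the only term in the main test, and a library set term and its interaction with age were added beside it. The library sets split the libraries where their shares of ribosomal protein counts were farthest apart. DESeq2 1.42.0, limma 3.58.1 (voom), other scalings and filters, a Y-linked term, a replicate block and single libraries left out were the alternatives. Differences between library subsets used log2 CPM with a prior count of 2, and no test. The p-values set the age difference against the spread between libraries within groups. With age as the only term, that spread also holds the difference between the library sets.

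Every library's values are given for members called, for the 12 with the smallest unadjusted p, for those whose groups do not overlap and for the 6 with the highest mean TPM, and other tested members are given by range. Members and lists were chosen with earlier results of these data known. The labels do not say that their replicate numbers pair the mice, and the main test used no pairing. Scripts were tested on simulated data. Of 64 members, 47 had a promoter window in RefSeq on GRCm38.p6. Shared 31-base words and exon overlaps come from GENCODE annotation of the mouse, used for names only. Ccl19-ps2 was not matched there.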

Additional observations from a re-analysis of the deposited data

Results flagged for a closer look

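In each age group, a library was picked out where its gap to the nearest other library was large against the group's whole range (over Dixon's 95% critical value). Over the 42 tested members this picked out 6 of 84 groups, and chance alone gives about 1 in 20. Ccl2 was low in aged 5, at 0.452 CPM against 1.59 to 2.03 CPM in the other aged libraries. Ccr10 was at 0 CPM in aged 3, the library with the fewest genes counted, against 0.712 to 1.77 CPM in the others. Ccrl2 was low in aged 4, at 2.80 CPM against 7.85 to 10.7 CPM. Ccl9 was high in young 4, at 108 CPM against 45.4 to 49.5 CPM in the other young libraries. Young 3 was apart for both Cxcr2, high at 217 CPM against 159 to 167 CPM, and Ackr3, low at 6.68 CPM against 9.77 to 10.4 CPM.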

How the results depend on the processing

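Calls with age alone depended on the tool and on the terms, and not on the scalings and filters tried. Members called were 0 by edgeR, 1 with a replicate block (Ccl8), 7 by DESeq2 and 2 with the library set term, and stayed at 0 in every fit that left out 1 library. All genes called were 0 by edgeR, 13 with the replicate block, 360 by DESeq2, 319 with the library set term, 2 in the 6-library set alone and 1 with Y-linked expression as a term, and 0 to 6 with 1 library left out (6 without aged 5). With the library set term, members called ran from 0 to 10 with 1 library left out (10 without aged 3, where 1633 of 16480 genes were called). Where 0 members were called, at most 2 of all genes were called. Members called were 10 with a replicate block beside the set term (1485 of 16576 genes). They were 0 with Y-linked expression as a further term (5 of 16576 genes). The labels do not say that replicate numbers pair the mice. Correlations of same-numbered libraries were 0.456, 0.554, -0.387 and 0.739, and those of differently numbered libraries ran from -0.640 to 0.527. For aged 1, aged 2 and aged 4 the same-numbered young library had the highest correlation, and for aged 3 it did not. These values cannot decide on a pairing, because the library sets also follow the numbers in part. The median log2 fold change of tested members was 0.68 by edgeR, 0.48 with at least 1 CPM in 4 libraries and 0.38 by limma-voom. It was 0.31 in the 3-library set and 0.21 for aged 5 against young 1 to 3. With Y-linked expression as a term it was 0.039, and with 1 library left out 0.54 to 0.76. With Y-linked expression as a term, where the age difference rests on aged 5, the log2 fold changes of Ccl8, Cxcl10 and Ccl4 turned to -0.29, -0.18 and -0.45. That of Ccl6 turned to 0.024 with library totals alone, and ran from -0.20 to 0.28 with 1 library left out, above 0 without aged 1 (0.04), aged 2 (0.09) or young 4 (0.28). Of 367 single-member values over 16 members, 10 changed sign, the 7 above and, with no test, those of Ccl8 (-0.14), Ccl4 (-0.06) and Ccl6 (0.32) for aged 5 against young 1 to 3. The cause was not tested. Members near or under 1 CPM rest on few counts, so depth limits the precision of their values.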
